A study of Mus musculus with 10 samples.

Results

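The BCL2 family sets whether a cell keeps or loses the integrity of its outer mitochondrial membrane, and 10 of its genes were named for description: the survival genes Mcl1, Bcl2 and Bcl2l1, the effectors Bak1 and Bax, and the BH3-only genes Bid, Bad, Bcl2l11, Bbc3 and Pmaip1. Probe sets were taken by the gene symbol of the array's annotation, and 9 of the 10 genes had at least 1, among 18193 genes with a probe set of their own. No Bax intensity was analysed here. The 9 genes had 29 probe sets, of which 23 were tested and 6 did not exceed the median of the whole table, an intensity of 30.52, on at least 2 arrays. Mcl1 had 6 tested probe sets, Bcl2, Bcl2l1 and Bcl2l11 had 3 each, Bak1, Bid and Bad had 2 each, and Bbc3 and Pmaip1 had 1 each.

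The arrays measured total RNA of MEL cells, a mouse erythroleukemia line that resembles immature red cell precursors. The subclones FBB1.11, FBB1.10, FBB1.7 and FBB1.5 stably expressed BCL11A, a transcription factor that silences fetal globin genes, with a FLAG-Biotag, and the parental line was Mel-BirA. All 5 lines carried BirA, the bacterial enzyme that attaches biotin to such a tag, so BirA is common to both sides of every comparison. There were 2 arrays of each line, 8 of tagged subclones and 2 of the parental line, each subclone is 1 clonal line, and the labels name no promoter for the construct.

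Anti-apoptotic members of the family, such as MCL1, BCL2 and BCL-XL (the product of Bcl2l1), bind the effectors BAX and BAK and keep them from opening pores in the outer mitochondrial membrane. BH3-only proteins respond to stress by occupying the survival proteins or by engaging the effectors directly, after which cytochrome c leaves the mitochondrion and caspases are activated. In the red cell lineage BCL-XL keeps late erythroblasts alive downstream of erythropoietin, and MCL1 is needed earlier, in stem and progenitor cells.

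The sequences before the annotated starts of the genes with the results described here are shown because each is a distinct GC-rich start region, 250 bases long, from RefSeq on GRCm38.p6. Capitals mark GGGCGG on either strand, the letters of a GC box, and no other motif that was searched occurs in these windows. Mcl1 was read at chr3:95658471-95658720 on the plus strand, Bcl2 at chr1:106714291-106714540 on the minus strand and Bcl2l11, at its first listed start, at chr2:128125788-128126037 on the plus strand. The Mcl1 window lies inside the gene's annotated span, chr3:95656944-95663179, so it precedes a listed start within that span and not the span itself.
Mcl1: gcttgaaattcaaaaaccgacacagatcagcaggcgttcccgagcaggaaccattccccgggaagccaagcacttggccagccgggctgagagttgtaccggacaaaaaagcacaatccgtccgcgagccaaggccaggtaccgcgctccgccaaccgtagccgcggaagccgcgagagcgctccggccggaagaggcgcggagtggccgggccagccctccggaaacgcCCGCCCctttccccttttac
Bcl2: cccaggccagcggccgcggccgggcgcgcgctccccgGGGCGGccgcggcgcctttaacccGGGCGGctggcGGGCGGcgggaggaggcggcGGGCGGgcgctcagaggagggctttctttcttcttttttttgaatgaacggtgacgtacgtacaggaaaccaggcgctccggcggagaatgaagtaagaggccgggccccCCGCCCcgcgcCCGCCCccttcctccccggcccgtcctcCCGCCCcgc
Bcl2l11: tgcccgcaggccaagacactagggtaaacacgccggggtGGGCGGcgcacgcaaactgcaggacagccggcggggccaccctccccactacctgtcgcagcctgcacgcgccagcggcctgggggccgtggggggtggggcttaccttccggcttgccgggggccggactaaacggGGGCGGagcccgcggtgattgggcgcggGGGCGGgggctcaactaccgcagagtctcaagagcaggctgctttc
GGGCGG occurred 1 time in the Mcl1 window, 7 times in the Bcl2 window and 3 times in the Bcl2l11 window, and the GC content of these windows was 64.4%, 74.8% and 72.0%. The search covered 15 start windows from RefSeq for 9 of the 10 named genes, Bax among them. No window of Pmaip1 was searched, so the shares below leave this gene out. GGGCGG was in 10 of the 15, against 32.7% of 32851 windows of the same length, and TATAAA was in 0 of 15, against 12.4%. TGACCA and GATAA, letters that BCL11A and GATA factors are known to recognise, were each in 1 of 15, both in a window of Bcl2l1, against 11.4% and 22.6% of all windows. Both strands were searched and windows of 1 gene can overlap.

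Array medians lay between 29.58 and 31.59. Pearson's r of log2 values was 0.981 to 0.989 between arrays of 1 line and 0.968 to 0.987 between lines. Of the Bcl11a probe sets, the one that limma called higher in FBB1.5, FBB1.10 and FBB1.11 read 62.1 and 95.8 for FBB1.5, 62.4 and 65.0 for FBB1.7, 232.6 and 164.5 for FBB1.10, 245.4 and 180.7 for FBB1.11, and 39.7 and 35.9 for the parental line; in FBB1.7 it missed the threshold (adjusted p = 0.0711, limma). Another, called lower in FBB1.7 (adjusted p = 0.0148), read 229.1 and 236.2 there, against 309.5 and 350.01 in the parental line. Which of them detect the construct was not analysed here. Of the erythroid markers, 9 of 10 had a probe set and 7 lay above the table median. Their summed intensity was 6864 to 8332 on tagged arrays and 7037 to 7703 on parental arrays. Its largest parts were Tfrc and Gata1, at averages of 2036 and 2231 in FBB1.7 and 2574 and 2251 in the parental line. Of the 7 measured, limma called 2 higher (Hba-a2 and Rhag) and 1 lower (Tfrc) in FBB1.7, against 4.29% and 6.39% of all genes. None was called in the other subclones. Hba-a1 and Slc4a1 were at or below the table median on every array. Of the mast cell and basophil markers, 6 of 8 lay above it, with sums of 840 to 6299 on tagged arrays (mean 898 in FBB1.7) and 5434 to 6564 on parental arrays, and Ms4a2 and Fcer1a were at or below it throughout. Most of these sums in FBB1.7 and the parental line was Mcpt2, at averages of 673 and 5453. Of the 6 measured, limma called 3 lower in FBB1.7 (Cpa3, Mcpt2 and Cma1) and 0 higher, against 6.39% and 4.29% of all genes. It also called Cpa3, Mcpt2 and Cma1 lower in FBB1.10, Mcpt2 and Cma1 in FBB1.11 and Mcpt4 in FBB1.5. The shares of all genes called lower there were 0.872%, 0.12% and 0.992%. The actin control's 3' over 5' ratio, which rises as RNA or cRNA is shortened, was 1.801 on parental array 2, 1.467 on FBB1.5 array 1, 1.217 on parental array 1 and 1.06 to 1.172 on the other 7 arrays.

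Against the parental line, probe sets of 2 family members were lower in FBB1.7, and no probe set of the family passed the test in FBB1.5, FBB1.10 or FBB1.11. The lower ones in FBB1.7 were 4 of the 6 Mcl1 probe sets and 1 of the 3 Bcl2l11 probe sets, so 5 of 23 (21.7%) were called, against 10.1% of all tested probe sets in either direction and 5.5% lower. Over all tested probe sets the share called was 2.02% for FBB1.5, 1.8% for FBB1.10 and 0.188% for FBB1.11. At an unadjusted p under 0.05, 7 of the 23 family probe sets passed in FBB1.7, against 24.2% of all probe sets, and 7 passed in FBB1.5, 11 in FBB1.10 and 6 in FBB1.11, against 14.8%, 15.4% and 11.8% of all. The median log2 difference of the 23 probe sets was 0.01 for FBB1.5, -0.04 for FBB1.7, 0.01 for FBB1.10 and -0.05 for FBB1.11, against 0.02, 0.00, 0.02 and 0.01 over all tested probe sets. Calls were made at limma's adjusted p (Benjamini-Hochberg over all 25061 tested probe sets) under 0.05, and differences are on the scale of log2(intensity + 16). Probe sets of 1 gene are not independent measurements, and by the brightest probe set of each gene 0 of 9 members were called in any of the 4 comparisons.

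The intervals of these differences show how much change the arrays could have missed for members without a call. In the plot of differences by subclone the called probe sets are those of Mcl1 and Bcl2l11 in FBB1.7. Without parental array 1, limma called 2 family probe sets in FBB1.5 (Mcl1 1456243_x_at and 1456381_x_at), 2 in FBB1.10 (Mcl1 1416881_at and 1448503_at) and 3 in FBB1.11 (Bcl2 1437122_at, Mcl1 1416881_at and 1448503_at), where the full set of arrays gave 0. The 2 arrays of a line limit the precision throughout, and since the labels do not say that they came from separate cultures, the p-values cover only spread between arrays of a line, and that spread may be technical.

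**Figure D1:**
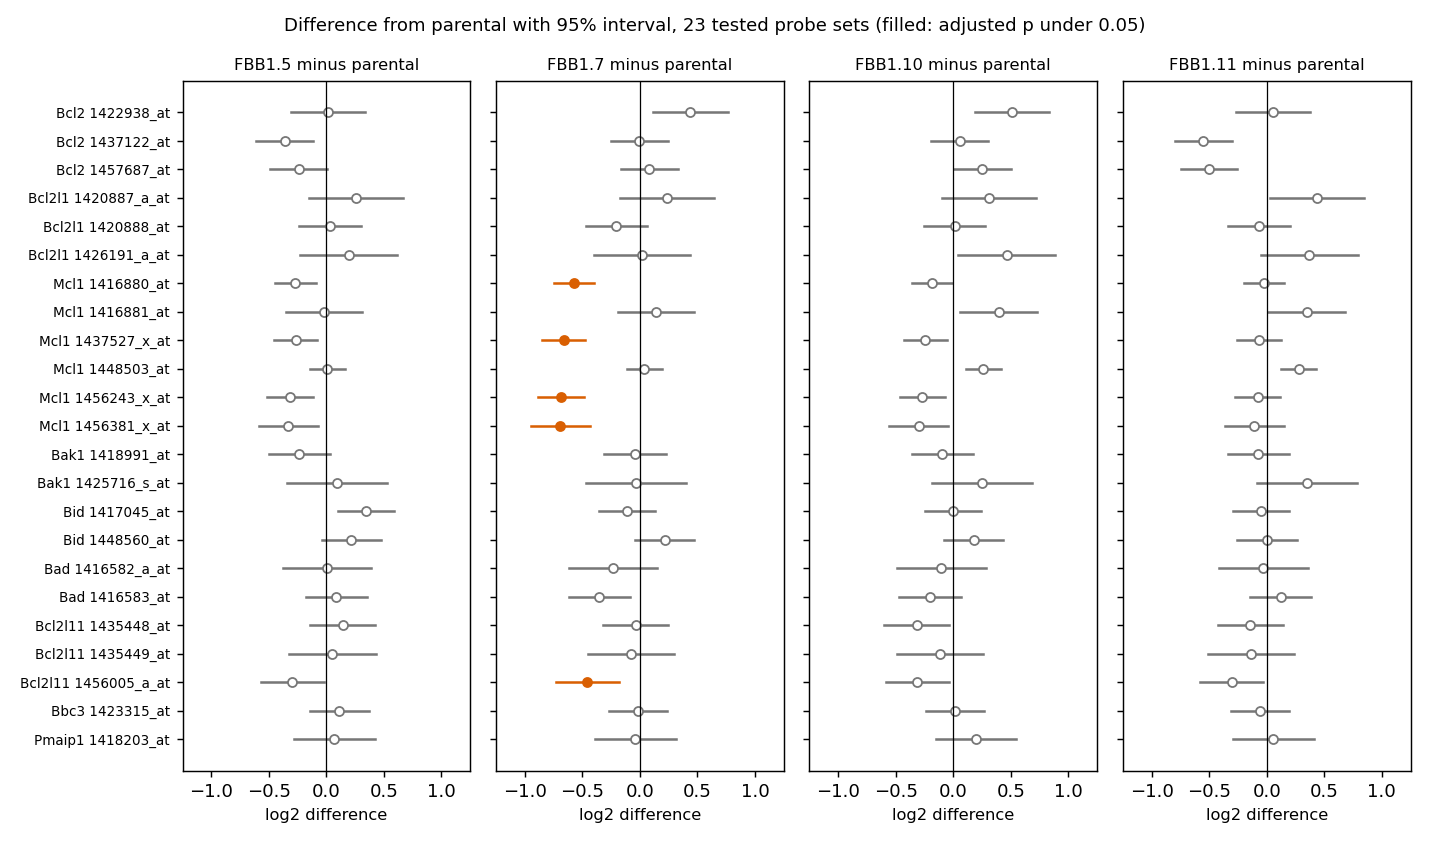
Log2 difference of each of the 23 tested probe sets from the parental line, with its 95% interval, in a panel for each subclone; filled points have an adjusted p under 0.05. The 5 filled points are all in the FBB1.7 panel and all lie below 0, between -0.69 and -0.46.

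Mcl1 encodes a survival protein with a very short life, so that it needs continued synthesis. The gene lies at chr3:95656944-95663179 in GRCm38.p6. Probe set 1416880_at read 1191 and 1046 for FBB1.5, 896 and 907 for FBB1.7, 1193 and 1175 for FBB1.10, 1350 and 1308 for FBB1.11, and 1288 and 1412 for the parental line. Both FBB1.7 arrays lay below the other 8, and the FBB1.11 arrays lay among the parental ones. The difference of FBB1.7 from the parental line was -0.57 (SE 0.08), a fold of 0.672, with limma's adjusted p = 0.00054.

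The other 3 Mcl1 probe sets that fell in FBB1.7 carry the suffix _x_at, which marks probes that can also match other transcripts. Probe set 1437527_x_at read 796 and 807 in FBB1.7, against 1226 and 1329 in the parental line, a difference of -0.66 (adjusted p = 0.000317, limma). Probe set 1456243_x_at read 728 and 766 in FBB1.7, against 1128 and 1298 in the parental line, a difference of -0.68 (adjusted p = 0.00034, limma). In both, the FBB1.7 arrays were the lowest of all 10 and did not overlap those of any other line. Probe set 1456381_x_at read 427 and 450 in FBB1.7, against 641 and 802 in the parental line, and fell by 0.69 (adjusted p = 0.00222, limma). The line means of all 4 probe sets had the same order, FBB1.7 lowest, then FBB1.5, FBB1.10, FBB1.11 and the parental line, and over the 10 arrays their log2 values correlated with r between 0.974 and 0.992, in arrays they share.

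The remaining 2 Mcl1 probe sets did not fall in FBB1.7. Probe set 1448503_at, the brightest of the 6, read 1803 and 1842 in FBB1.7, against 1859 and 1694 in the parental line, and its difference of 0.04 had a 95% interval of -0.11 to 0.19, which does not reach the fall seen by the other 4. On it FBB1.10 read 2166 and 2096 and FBB1.11 read 2255 and 2064, above both parental arrays, with differences of 0.26 (adjusted p = 0.0822, limma) and 0.28 (adjusted p = 0.129, limma). Probe set 1416881_at read 721 and 701 in FBB1.7, against 791 and 522 in the parental line, where the FBB1.7 values lie between the parental ones, and its difference was 0.14 with an interval of -0.19 to 0.47. These 2 probe sets correlated with each other (r = 0.88 over 10 arrays) and with the 4 that fell only at r between -0.173 and 0.267. Which stretch of the Mcl1 transcript each probe set reads was not analysed here.

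**Figure D2:**
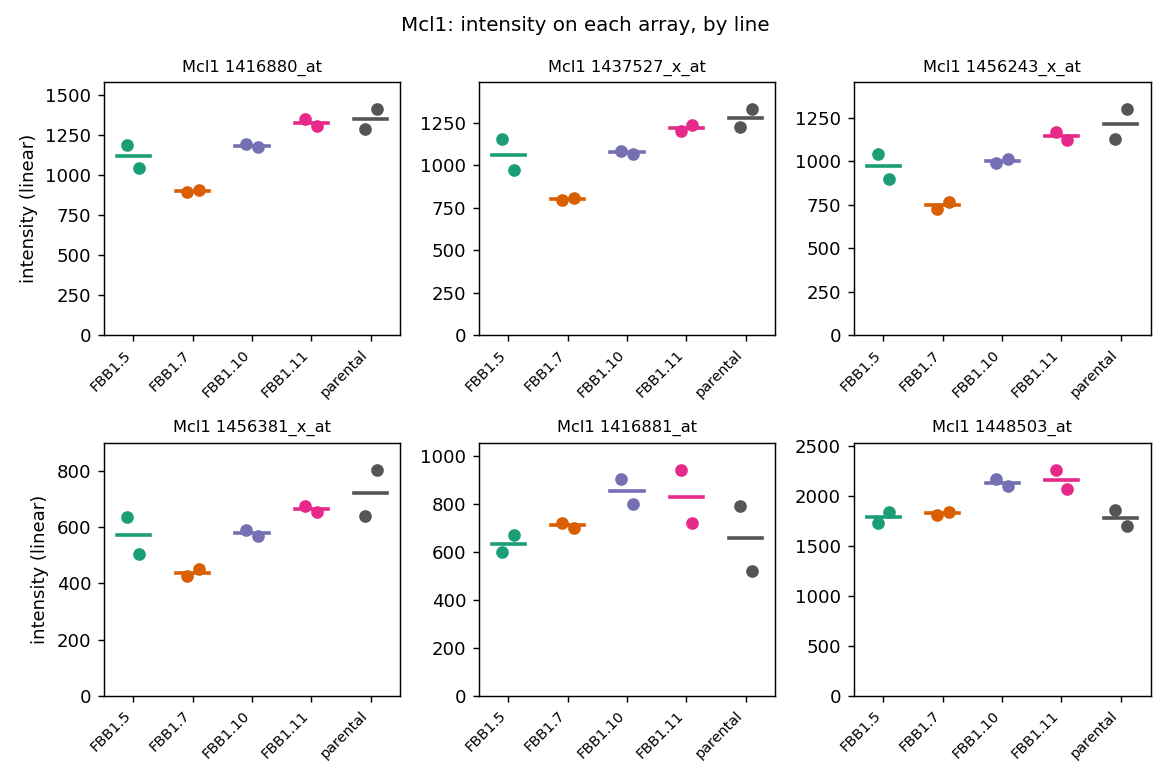
Intensity (linear) of the 6 Mcl1 probe sets on each array, with a bar at the mean of each line's 2 arrays. FBB1.7 is the lowest line in the first 4 panels, and in the panels of 1416881_at and 1448503_at it lies at or near the parental level.

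The 2 kinds of Mcl1 probe set also stood in opposite relation to the actin ratio, which was lowest on the FBB1.7 arrays. Over the 10 arrays r with its log2 value was 0.589 to 0.741 for the 4 that fell and -0.724 and -0.537 for the other 2. With the actin ratio as a covariate, a setting chosen after seeing the data, the FBB1.7 differences were -0.43 for 1416880_at, -0.50 for 1437527_x_at and -0.48 for 1456243_x_at (adjusted p = 0.0285, 0.0176 and 0.0186, limma), and the call of 1456381_x_at was lost (adjusted p = 0.111). Whichever array was left out, the 4 calls held, with adjusted p up to 0.0109, 0.00695, 0.00906 and 0.0322 (limma). The sum of the mast cell markers, most of it Mcpt2, was also lowest in FBB1.7, at a mean of 898. It was 1732 in FBB1.11, 2351 in FBB1.10, 5631 in FBB1.5 and 5999 in the parental line, so it was low in FBB1.11 and FBB1.10 too. The part of this sum in the Mcl1 difference was not tested. In bulk RNA fewer cells of a type and less RNA per cell cannot be told apart.

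The subclones, which carry the same construct, also differed among themselves in Mcl1 and Bcl2. A moderated F test over the 4 subclones called 7 of the 23 probe sets (30.4%), 5 of Mcl1 and 2 of Bcl2, against 7.24% of all tested probe sets. For Mcl1 the adjusted p was 0.0037 for 1416880_at, 0.0035 for 1437527_x_at, 0.0044 for 1456243_x_at, 0.033 for 1456381_x_at and 0.035 for 1448503_at (limma). Leaving out FBB1.7 array 1 ended the call of 1456243_x_at (adjusted p = 0.0642). Any one of 8 arrays, all of the subclones, ended that of 1448503_at (adjusted p up to 0.122), and that of 1456381_x_at was lost without either array of FBB1.7 or FBB1.11 or without FBB1.10 array 1 (adjusted p up to 0.228). The count over the family was 4 without FBB1.7 array 1 and 4 without FBB1.11 array 1. With the intensity trend of the variances left out of the model it was 1, Bcl2 1457687_at, and the 5 Mcl1 calls were lost (adjusted p 0.0831 to 0.284).

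No family probe set passed between FBB1.5 and FBB1.11 or between FBB1.7 and FBB1.10, pairs with 1.32% and 0.124% of all called. Between subclones taken in pairs, 6 of 23 family probe sets differed between FBB1.7 and FBB1.11, against 3.29% of all tested. The 4 Mcl1 probe sets that were low in FBB1.7 lay below FBB1.11 by 0.55 to 0.61 on the log2 scale (FBB1.7 minus FBB1.11, -0.55 for 1416880_at, -0.59 for 1437527_x_at, -0.61 for 1456243_x_at and -0.58 for 1456381_x_at, adjusted p = 0.0022, 0.0022, 0.0026 and 0.015, limma). The last of these was lost without any one of the 4 arrays of the pair (adjusted p up to 0.15), and the other 3 held whichever array was left out. Without the intensity trend all 4 were lost (adjusted p 0.0707 to 0.114, limma), as were 13 of the 14 pair calls of the family. FBB1.5 lay above FBB1.7 on 3 of them, by 0.30, 0.39 and 0.37 (adjusted p = 0.0298, 0.0105 and 0.0202, limma), and all 3 were lost without FBB1.5 array 1 or either FBB1.7 array (adjusted p up to 0.251). With the actin covariate the differences were 0.22 for 1416880_at, 0.30 for 1437527_x_at and 0.25 for 1456243_x_at, of which the first and the last missed the threshold (adjusted p = 0.126, 0.0481 and 0.0901, limma). Between FBB1.10 and FBB1.11 no Mcl1 probe set passed the test, with differences of -0.16 to -0.19 for the same 4, so the order of these neighbours was not resolved.

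Bcl2, the founding survival gene of the family (chr1:106538176-106714290 in GRCm38.p6, minus strand), was higher in FBB1.7 and FBB1.10 than in FBB1.11 on 2 of its probe sets, and no subclone passed the test against the parental line. Probe set 1457687_at read 248 and 231 for FBB1.5, 289 and 319 for FBB1.7, 358 and 330 for FBB1.10, 183 and 213 for FBB1.11, and 301 and 271 for the parental line. The FBB1.10 arrays were the highest of the 10 and the FBB1.11 arrays the lowest, without overlap. The F test over the 4 subclones gave an adjusted p of 0.0028 (limma), which stayed under the threshold in all 22 alternative settings.

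FBB1.10 exceeded FBB1.11 by 0.76 (SE 0.11) on this probe set (adjusted p = 0.00984, limma), in a pair for which 0.267% of all probe sets were called. FBB1.7 exceeded FBB1.11 by 0.58 (adjusted p = 0.0117), and FBB1.5 lay below FBB1.10 by 0.50 on the log2 scale (FBB1.5 minus FBB1.10, -0.50, adjusted p = 0.0254, limma), in a pair with 3.92% called. Each of these pair calls was lost without 1 of the arrays that enter it. The first was lost without FBB1.10 array 1 or either FBB1.11 array (adjusted p up to 0.214), the second without either FBB1.7 array or FBB1.11 array 1 (up to 0.167) and the third without any array of its pair (up to 0.23). Against the parental line FBB1.11 differed by -0.50, with a 95% interval of -0.75 to -0.26 and an adjusted p of 0.0929, which missed the threshold.

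The second Bcl2 probe set, 1437122_at, gave the same picture, with 247 and 263 for FBB1.7, 257 and 276 for FBB1.10, 155 and 184 for FBB1.11, and 244 and 268 for the parental line. FBB1.5, at 188 and 202, and FBB1.11 lay below the other 3 lines without overlap. The difference of FBB1.11 from the parental line was -0.55 (adjusted p = 0.0718, limma), short of the threshold, and it passed in 4 of the alternative settings. The F test over subclones gave an adjusted p of 0.0085, which was lost without FBB1.11 array 1 (0.0585) and without the intensity trend (0.0593). FBB1.7 and FBB1.10 exceeded FBB1.11 by 0.55 and 0.61 (adjusted p = 0.0178 and 0.0414, limma). The FBB1.7 call was lost without either FBB1.7 array or FBB1.11 array 1 (adjusted p up to 0.226), and the FBB1.10 call without any one of the 8 tagged arrays (up to 0.404). Quantile normalization, median centring and the lack of an intensity filter each also ended the FBB1.10 call (adjusted p = 0.0514, 0.0585 and 0.117, limma). The 2 probe sets correlated at r = 0.914 over the 10 arrays.

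The third tested Bcl2 probe set, 1422938_at, did not follow them closely (r = 0.468 and 0.571). It read 157 and 154 for FBB1.7 and 171 and 158 for FBB1.10, against 119 and 103 in the parental line, so both subclones lay above the parental arrays. The differences of 0.44 and 0.51 did not pass the test (adjusted p = 0.0849 and 0.109, limma). Its r with the log2 actin ratio was -0.702, and the part of RNA quality in its level was not tested apart from the covariate fit, which called no Bcl2 probe set against the parental line. The other 2 Bcl2 probe sets, 1440770_at and 1443837_x_at, read at most 22.7 on any array.

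Bcl2l11 encodes BIM, a BH3-only protein that binds all the survival members. Probe set 1456005_a_at read 68.0 and 74.0 for FBB1.5, 60.7 and 63.0 for FBB1.7, 70.7 and 69.3 for FBB1.10, 70.4 and 70.6 for FBB1.11, and 97.8 and 84.3 for the parental line. All 8 tagged arrays lay below both parental arrays, and the subclone means lay between 61.9 and 71.0 (F test over subclones, adjusted p = 0.783, limma). The share of all tested probe sets on which tagged and parental arrays separate was not counted, so this separation is not set against a background. FBB1.7 fell by 0.46 (SE 0.13) on the log2 scale, with an adjusted p of 0.0358. The differences of -0.30 in FBB1.5, -0.31 in FBB1.10 and -0.30 in FBB1.11 did not pass (adjusted p = 0.289, 0.249 and 0.37, limma). The FBB1.7 call was lost without parental array 1 (0.162) and without any 1 of the 6 arrays of FBB1.7, FBB1.10 and FBB1.11 (adjusted p up to 0.177). It was also lost with the actin covariate (-0.60, adjusted p = 0.076) and without the intensity filter (adjusted p = 0.0862).

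With all tagged subclones set against the parental line and the line as a random block, Bcl2l11 1456005_a_at had the smallest p of the family, 0.00884 before adjustment and 0.444 after it. That fit called 0 of all tested probe sets, and 3 of the 23 family probe sets passed an unadjusted p under 0.05, against 8.74% of all. The other Bcl2l11 probe sets did not separate the tagged from the parental arrays. Probe set 1435448_at read 97.5 and 86.9 in FBB1.7, against 100.3 and 89.6 in the parental line, and 1435449_at read 61.3 and 67.3 in FBB1.7, against 63.8 and 74.1 in the parental line. On 1435448_at FBB1.10, at 78.1 and 67.8, lay below both parental arrays, with a difference of -0.32 (unadjusted p = 0.0285, adjusted p = 0.253, limma). In the plot of Bcl2 and Bcl2l11 intensities only the panel of 1456005_a_at separates the tagged from the parental arrays, and its r with the other 2 was 0.185 and 0.125.

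**Figure D3:**
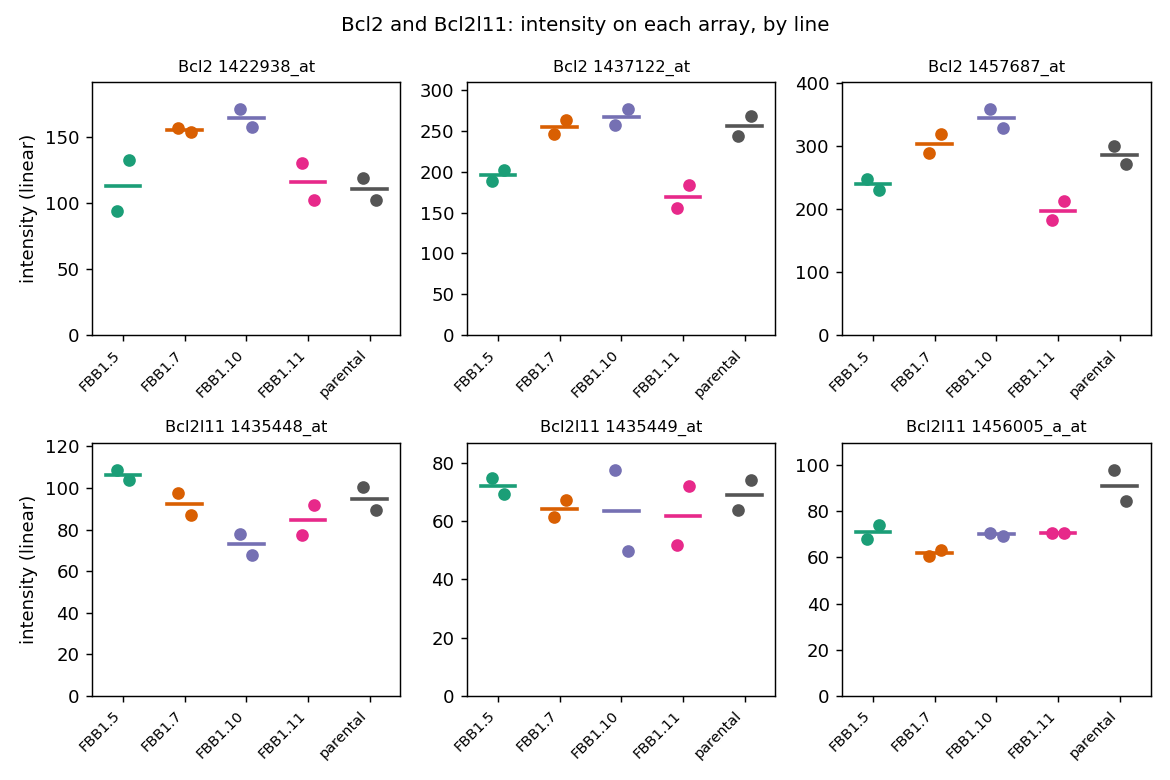
Intensity (linear) of the 3 tested probe sets of Bcl2 and the 3 of Bcl2l11 on each array, with a bar at the mean of each line. FBB1.10 is high and FBB1.11 low in the panels of Bcl2 1437122_at and 1457687_at, and all tagged arrays lie at or below 74.0 in the panel of Bcl2l11 1456005_a_at, where the parental arrays read 97.8 and 84.3.

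Averaged over the 4 subclones, with the spread taken from arrays of the same line, 3 of 23 family probe sets (13.0%) were called lower than the parental line, all of Mcl1, against 3.54% of all tested in either direction and 1.56% lower. The differences were -0.26 for 1416880_at, -0.31 for 1437527_x_at and -0.34 for 1456243_x_at (adjusted p = 0.0387, 0.0255 and 0.0217, limma). These calls rested on FBB1.7 and on parental array 2: without both arrays of FBB1.7 the count was 0 (adjusted p 0.219 to 0.331), and without parental array 2 it was also 0 (0.226 to 0.33). It was 1 without FBB1.7 array 2 or FBB1.11 array 1, and 5 without parental array 1. The call of 1416880_at was also lost without FBB1.5 array 2, FBB1.7 array 1, either FBB1.10 array or FBB1.11 array 2, which left 2. With the actin ratio as a covariate the count was 0 (adjusted p 0.371 to 0.47).

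Bcl2l1 encodes BCL-XL, the survival protein of late erythroblasts. Its probe set 1420888_at read 117 and 108 for FBB1.5, 93.3 and 92.8 for FBB1.7, 102 and 119 for FBB1.10, 110 and 97.7 for FBB1.11, and 115 and 104 for the parental line. FBB1.7 was the lowest line and lay below both parental arrays, but the difference of -0.20 had a 95% interval of -0.47 to 0.06 (adjusted p = 0.351, limma). The other 2 tested Bcl2l1 probe sets lay near the table median, at 18.8 to 47.8, with no call.

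Bak1 encodes BAK, the pore-forming effector that sits on mitochondria. Probe set 1418991_at read 117 and 96.4 for FBB1.5, 122 and 125 for FBB1.7, 120 and 117 for FBB1.10, 128 and 114 for FBB1.11, and 123 and 133 for the parental line. Apart from the low second array of FBB1.5 the tagged values overlapped the parental ones or lay just under them. Its difference in FBB1.5 was -0.24, with an interval of -0.50 to 0.03 (adjusted p = 0.411, limma). The dimmer Bak1 probe set, 1425716_s_at, read 28.5 to 48.9 on tagged arrays and 39.1 and 21.8 on parental arrays, and its difference of 0.35 in FBB1.11 had an interval of -0.09 to 0.79 (adjusted p = 0.536, limma).

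Bid, whose protein is cleaved by caspase-8 and carries death receptor signals to mitochondria, was highest in FBB1.5. Probe set 1417045_at read 249 and 216 for FBB1.5, 167 and 162 for FBB1.7, 182 and 175 for FBB1.10, 167 and 177 for FBB1.11, and 185 and 173 for the parental line. Both FBB1.5 arrays lay above the other 8. The difference of FBB1.5 from the parental line, 0.35, did not pass (adjusted p = 0.148, limma). FBB1.5 exceeded FBB1.7 by 0.46 (adjusted p = 0.0192), in a pair where 5 of 23 family probe sets and 9.44% of all were called, and this call was lost without FBB1.5 array 1 or either FBB1.7 array (adjusted p up to 0.155). The second probe set, 1448560_at, had values of 97.6 to 118 on tagged arrays and 107 and 89.9 on parental arrays, and on it the difference FBB1.5 minus FBB1.7 was 0.00, with an interval of -0.26 to 0.26.

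Bad encodes a BH3-only protein that growth factor signals hold inactive through AKT and 14-3-3 proteins. Probe set 1416583_at read 103 and 102 for FBB1.5, 68.6 and 74.1 for FBB1.7, 86.2 and 75.9 for FBB1.10, 99.2 and 112 for FBB1.11, and 98.8 and 92.3 for the parental line. FBB1.7 and FBB1.10 lay below the other 3 lines without overlap. The difference of FBB1.7 from the parental line was -0.35 (adjusted p = 0.0911, limma), short of the threshold. FBB1.5 exceeded FBB1.7 by 0.44 (adjusted p = 0.0378, limma), a call that was lost without any one array of FBB1.5, FBB1.7 or FBB1.11 (adjusted p up to 0.231). The actin covariate also ended it (adjusted p = 0.0592). The dimmer Bad probe set, 1416582_a_at, correlated with it at r = 0.737 and had no call.

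Bbc3 and Pmaip1 encode PUMA and NOXA, BH3-only proteins induced by p53, and NOXA binds MCL1 in particular. Bbc3 read 242 and 229 for FBB1.5, 220 and 208 for FBB1.7, 243 and 197 for FBB1.10, 208 and 207 for FBB1.11, and 228 and 206 for the parental line. Pmaip1 ranged over 64.03 to 91.6 on tagged arrays and read 84.9 and 60.2 on parental arrays. Tagged and parental values overlapped for both genes, no pair of lines passed the test, and the intervals of the differences from the parental line stayed within -0.31 to 0.37 for Bbc3 and -0.39 to 0.55 for Pmaip1.

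**Figure D4:**
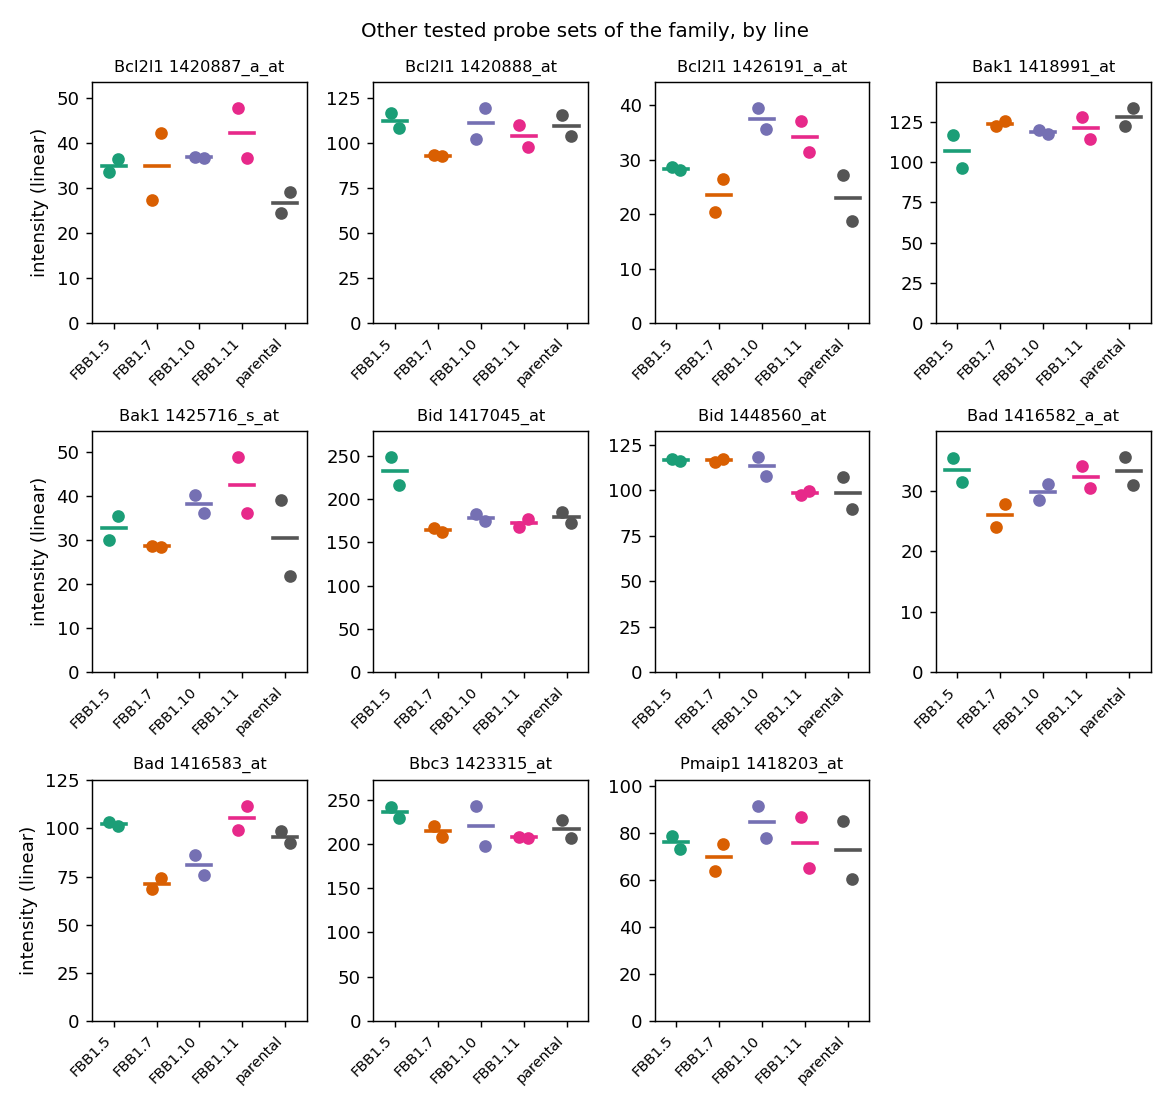
Intensity (linear) on each array of the 11 tested probe sets of Bcl2l1, Bak1, Bid, Bad, Bbc3 and Pmaip1, with a bar at the mean of each line. FBB1.5 stands highest in the panel of Bid 1417045_at, FBB1.7 and FBB1.10 stand lowest in that of Bad 1416583_at, and the values of the other panels overlap between most lines.

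The genes that act with the family were counted on 7 lists, each gene by its brightest tested probe set, against a background over all genes of 1.38% higher and 0.992% lower for FBB1.5, 4.29% and 6.39% for FBB1.7, 0.936% and 0.872% for FBB1.10, and 0.064% and 0.12% for FBB1.11. Of the other BCL2 family genes 7 of 15 were measured and of the death receptor arm 7 of 9, and none of either list was called in any subclone. On no list was a gene called in FBB1.11. Of the genes named below, Akt1, Jak2, Stat5b, Pim1, Ddit3, Htra2, Cycs and Ywhab also had dimmer tested probe sets, which are not described here. Of the 13 calls in FBB1.7 described next, 9 were lost with the actin covariate (adjusted p 0.0796 to 0.46, limma), and those of Cycs, Birc5, Ywhae and Akt1 held. The 5 calls in FBB1.5 and the 2 in FBB1.10 held with it. The slope of this covariate is set within lines, where the ratio differed most in the parental line (1.217 and 1.801) and FBB1.5 (1.467 and 1.139). A lost call was not always a smaller difference. In FBB1.7 Ywhab went from 0.32 to 0.40 and Trp53inp1 from -1.03 to -1.09, while Jak2 went from -0.48 to -0.25. The part of RNA quality in these differences was not tested further. Without the intensity trend 10 of the 13 calls in FBB1.7 were lost, with those of Zmat3, Ywhae and Akt1 left (adjusted p 0.0509 to 0.149, limma). So were 4 of the 5 in FBB1.5, with that of Vdac2 left, and both in FBB1.10 (0.141 to 0.231 and 0.241 to 0.246). Without the intensity filter 6 of the 13 in FBB1.7 were lost, Birc5, Casp6, Htra2, Jak2, Stat5b and Ywhab (adjusted p 0.0543 to 0.0826, limma). Lost in that setting as well were 4 of the 5 in FBB1.5, with that of Vdac2 left, and both in FBB1.10 (0.0552 to 0.113 and 0.0749 to 0.132). The median log2 difference in FBB1.7 was 0.13 for the other family genes, -0.03 for the apoptosome and caspases, -0.05 for the caspase inhibitors, 0.03 for the death receptor arm, -0.08 for p53 targets, 0.08 for partners of the family and -0.22 for erythroid survival regulators.

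Downstream of the mitochondrion, FBB1.7 had 1 gene higher and 1 lower of 9 measured of the apoptosome and effector caspases. Cycs, which encodes cytochrome c, averaged 2247 in FBB1.7 and 1675 in the parental line (0.42, adjusted p = 0.0028, limma), and the call held whichever array was left out. Casp6, an effector caspase, averaged 139 in FBB1.7 and 193 in the parental line (-0.43, adjusted p = 0.0438) and was lost without any one array of the parental line, FBB1.7, FBB1.10 or FBB1.11 (up to 0.249). Of 7 caspase inhibitors and their antagonists 2 rose in FBB1.7: Birc5, or survivin, averaged 1040 in FBB1.7 and 777 in the parental line (0.42, adjusted p = 0.0222, limma), and Htra2, a mitochondrial protease that opposes the inhibitors, averaged 164 in FBB1.7 and 103 in the parental line (0.60, adjusted p = 0.0263). Each was lost without parental array 1 or either FBB1.7 array (up to 0.176 for Birc5 and 0.142 for Htra2). With the actin covariate Casp6 and Htra2 were lost (adjusted p = 0.323 and 0.171, limma), and Casp6 also with quantile normalization (adjusted p = 0.0552).

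Of 12 measured p53 targets and regulators 2 fell in FBB1.7 and none was called in the other subclones. Trp53inp1 averaged 35.9 in FBB1.7 and 86.5 in the parental line (-1.03, adjusted p = 0.0096, limma), a call lost without FBB1.7 array 2 (-0.66, adjusted p = 0.124). Zmat3 averaged 53.3 in FBB1.7 and 83.3 in the parental line (-0.52, adjusted p = 0.0178), a call lost without any one array of either line (up to 0.0941). With the actin covariate both calls were lost, at differences of -1.09 and -0.52 (adjusted p = 0.0796 and 0.144, limma).

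Partners that hold or turn over the members were all measured, 14 of 14. Vdac2, the outer membrane channel that holds BAK, averaged 3012 in FBB1.5 and 1410 in the parental line (1.09, adjusted p = 5.3e-06, limma), and this call held whichever array was left out, up to an adjusted p of 0.000477. The other subclones averaged 1380 to 1455. Vdac2 lies on chromosome 14, and its neighbours there were not analysed here. Ywhae, a 14-3-3 gene, was read by the brightest of its 4 tested probe sets, which carries the suffix _x_at. Its probes can also match other transcripts, and the other tested Ywhae probe sets are not described here. This probe set rose in FBB1.5, FBB1.7 and FBB1.10. It averaged 2790, 3100 and 2794, against 2236 in the parental line (0.32, 0.47 and 0.32, adjusted p = 0.0179, 0.00037 and 0.0213, limma). The FBB1.7 call held whichever array was left out, the FBB1.5 call was lost without parental array 1 or either FBB1.5 array (up to 0.0993), and the FBB1.10 call without either FBB1.10 array (up to 0.153) or with quantile normalization (0.0585). These comparisons share the parental arrays.

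In FBB1.7 2 other 14-3-3 genes moved in opposite directions. Ywhab averaged 1832 in FBB1.7 and 1462 in the parental line (0.32, adjusted p = 0.0296, limma), and Ywhag averaged 536.5 in FBB1.7 and 701.2 in the parental line (-0.38, adjusted p = 0.0172). The first was lost without parental array 1 or FBB1.7 array 2 (up to 0.249) and the second without parental array 2 or FBB1.7 array 1 (up to 0.201). Both were lost with the actin covariate (0.40 and -0.33, adjusted p = 0.0841 and 0.187, limma), and Ywhab also with quantile normalization (adjusted p = 0.0676) and with median centring (0.0523). The Ywhag probe set, the brightest of 4 tested, also carries the suffix _x_at, and the other tested Ywhag probe sets are not described here.

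Of the 14 erythroid survival regulators, all measured, 4 fell in FBB1.7 and none rose. Akt1, the kinase that phosphorylates BAD, averaged 929 in FBB1.7 and 1461 in the parental line (-0.65, adjusted p = 0.00024, limma), and the call held whichever array was left out (up to 0.00749). Jak2, Stat5b and Pim1, a kinase, a transcription factor and a target of the erythropoietin receptor's signal, fell by 0.48, 0.56 and 0.46 on the log2 scale (adjusted p = 0.0254, 0.0327 and 0.0264, limma). Each of these was lost without parental array 2 or FBB1.7 array 2, with Stat5b lost also without parental array 1 and Pim1 also without FBB1.7 array 1 (up to 0.23 for Jak2, 0.341 for Stat5b and 0.153 for Pim1). With the actin covariate the Akt1 difference was -0.72 (adjusted p = 0.00234, limma), and those of Jak2, Stat5b and Pim1 were -0.25, -0.51 and -0.39 and missed the threshold (adjusted p = 0.46, 0.242 and 0.252). Jak2, Stat5b, Pim1 and Ywhab were named after their values were seen.

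In FBB1.5, 2 of the same 14 rose and 1 fell. Myc averaged 647 in FBB1.5 and 464 in the parental line (0.47, adjusted p = 0.0268, limma), and was lost without parental array 1 or either FBB1.5 array (up to 0.119). Ddit3, the stress factor CHOP, averaged 1380 in FBB1.5 and 1995 in the parental line (-0.52, adjusted p = 0.0196), and was lost without parental array 2 or FBB1.5 array 2 (up to 0.184). Atf4, which induces Ddit3 in the stress response, rose in FBB1.5 and FBB1.10, with averages of 1995 and 1987, against 1481 in the parental line (0.43 in each, adjusted p = 0.0331 and 0.04, limma). The first was lost without parental array 1 or any FBB1.5 or FBB1.11 array (up to 0.185), and the second without any array but parental array 2 (up to 0.306). Both missed the threshold with quantile normalization (adjusted p = 0.0559 and 0.0532) and with median centring (0.0506 and 0.0619). The Atf4 probe set, the brighter of 2 tested, carries the suffix _x_at, and the dimmer one is not described here.

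**Figure D5:**
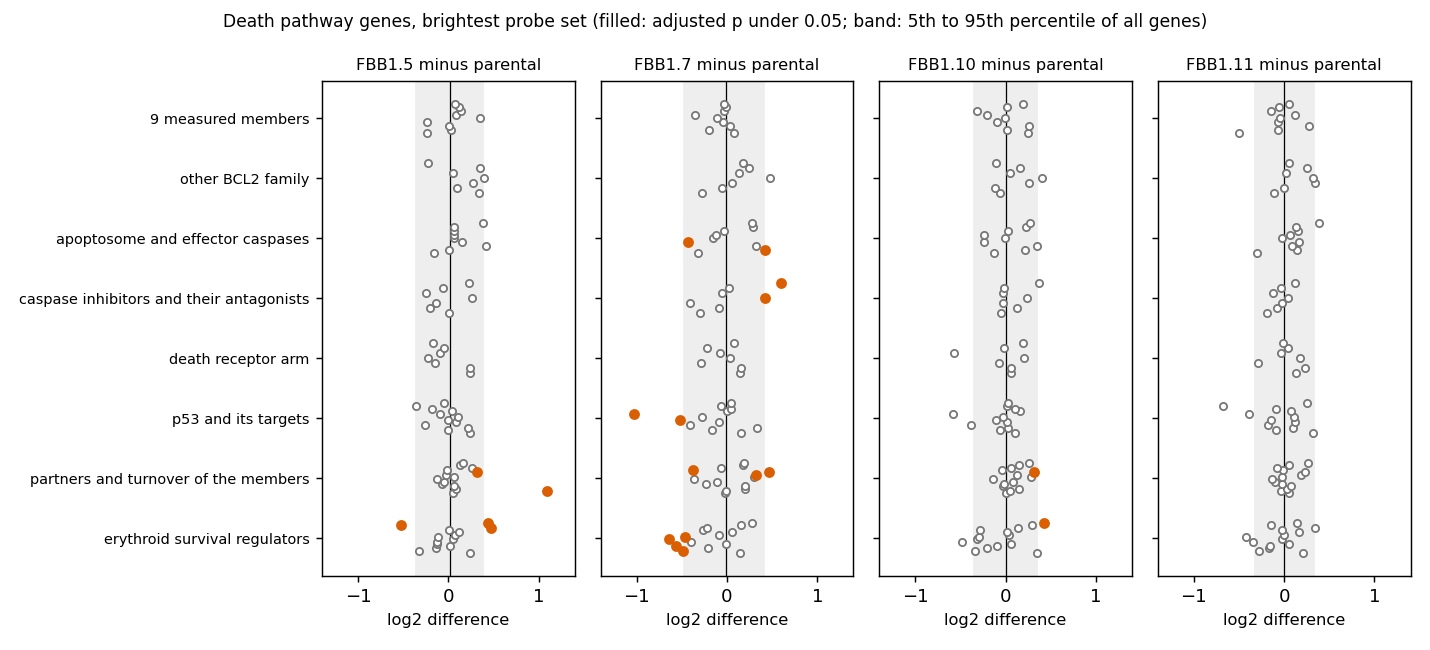
Log2 difference from the parental line of each measured gene of 7 lists and of the 9 measured family members, by its brightest tested probe set, in a panel for each subclone; filled points have an adjusted p under 0.05 and the band spans the 5th to the 95th percentile of all genes. FBB1.7 holds 13 filled points, FBB1.5 holds 5, FBB1.10 holds 2 and FBB1.11 holds 0, and no family member is filled in any panel.

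Over the 10 arrays, the genes most like 3 members were sought among 4073 genes with a mean intensity above 200, by Pearson's r of log2 values. These members had the smallest p of an F test over the lines in these same data, each by its brightest probe set. The pattern of Bcl2 1457687_at was most like those of Oser1 (r = 0.93), Nt5c3 (0.925) and Ivns1abp (0.923). Ivns1abp averaged 599 for FBB1.5, 799 for FBB1.7, 1113 for FBB1.10, 437 for FBB1.11 and 794 for the parental line, so it too was highest in FBB1.10 and lowest in FBB1.11. Mcl1 1448503_at was most like Dpy19l1 (0.911), Kctd9 (0.879) and Ppp2cb (0.862). This probe set did not fall in FBB1.7, and no such search was made for the Mcl1 probe sets that did. Bad 1416583_at was most like Arpc5 (0.95), Pde3b (0.945) and Slc7a4 (0.925), of which Arpc5 averaged 588.5 in FBB1.7 and 872 in the parental line. The correlated values come from the same arrays, 2 for each line, so they share whatever sets 1 line apart.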

How the data were processed

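Values were the deposited linear intensities of 45101 probe sets on 10 arrays, as the authors gave them. Per the labels' protocols, cDNA primed with oligo-dT was transcribed into biotinylated cRNA. The sources used here do not say how probe values were combined, background-corrected or scaled. Of the probe sets, 34958 had 1 gene symbol, 932 several and 9211 none. The 64 control probe sets were left out, and 25061 above the table median (30.52) on at least 2 arrays were tested on log2(intensity + 16) with limma 3.58.1 in R 4.3.3 (lmFit with 1 mean per line, eBayes with intensity trend), adjusted by Benjamini-Hochberg. The tagged arrays together were tested with the line as a random block, whose consensus correlation by duplicateCorrelation was 0.211. Comparisons were each subclone, their mean and all tagged arrays against the parental line, an F test over subclones and, chosen after seeing the data, 6 pairs of subclones.

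The family members and lists were chosen with earlier results of these data known. Every tested member probe set could be named; of each list, up to 4 genes with the smallest p over the 5 lines, and for 3 members the 3 genes with the most similar pattern. A call against the threshold of 0.05 was repeated with other pseudocounts, normalizations, filters, variance settings and arrays left out, and, chosen after seeing the data, without _x_at probe sets and with the actin ratio in the model. On simulated data of 25061 probe sets, the FBB1.7 comparison recovered 87 of 100 changes of 1 on the log2 scale and 26 of 100 changes of 0.5, with 3 false calls. The simulated data held only 100 changes of each size and no added spread between lines, whereas the real comparison called 2519 probe sets. The recovery is therefore not that of the real comparison. Across the 10 pairs of lines, same-numbered arrays correlated in their deviations at -0.157 to 0.183, with 1 pair above 0.1. These low correlations do not settle whether the numbers pair arrays. With the replicate number as a block limma called 121 probe sets in FBB1.11, against 47 without it. Start sequences and gene positions came from RefSeq (GRCm38.p6). Figures were drawn with matplotlib 3.10.9 in Python 3.11.15.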

Additional observations from a re-analysis of the deposited data

Results flagged for a closer look

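Among the 8 tagged arrays, Bak1 1418991_at was unusually low on FBB1.5 array 2, at 96.38, by a test that flags about 1 in 20 groups by chance and was run on 23. The 4 subclones, which carry the same construct, differed from each other by the moderated F test (limma, Benjamini-Hochberg) for Bcl2 1457687_at (adjusted p = 0.0028) and Bcl2 1437122_at (0.0085). They also differed for Mcl1 1437527_x_at (adjusted p = 0.0035), 1416880_at (0.0037), 1456243_x_at (0.0044), 1456381_x_at (0.033) and 1448503_at (0.035). The last of these was high in FBB1.10 and FBB1.11, and the other 4 were low in FBB1.7.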

How the results depend on the processing

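Counts are of the 23 family probe sets called by limma. In FBB1.7, where 5 were called, the count was 2 without _x_at probe sets and 3 with the actin covariate, both settings chosen after seeing the data, and 4 to 6 with 1 array left out. In FBB1.5, where 0 were called, it was 2 with quantile normalization and 0 to 2 with 1 array left out. In FBB1.10, also 0, it was 0 to 2 with 1 array left out. In FBB1.11, again 0, it was 1 with an intensity above 100 required, 1 with robust eBayes and 1 with the replicate number as a block, each time Bcl2 1437122_at, and 0 to 3 with 1 array left out. For the mean of the subclones, where 3 were called, it was 0 without an intensity filter, 0 without the intensity trend, 0 without both arrays of FBB1.7, 1 without _x_at probe sets, 0 with the actin covariate and 0 to 5 with 1 array left out. For the difference between subclones, where 7 were called, it was 1 without the intensity trend, 4 without _x_at probe sets and 4 to 9 with 1 array left out. Leaving out _x_at probe sets removes 3 Mcl1 probe sets by construction, and the cause of the other shifts was not tested. With the line as a random block it was 0 in every setting. No family result changed direction. The replicate block gave 5 calls in FBB1.7, 3 for the mean and 7 for the difference between subclones. Without an intensity filter there were 4 in FBB1.7 and 5 for the difference between subclones. With an intensity above 100 required there were 4 and 8. For the difference between subclones the count was also 8 with robust eBayes, and 9 with all 10 arrays required above the table median. With 2 arrays a line, changes of 0.5 on the log2 scale were mostly missed in simulation (26 of 100 recovered in the FBB1.7 comparison). Far fewer probe sets changed there than the real comparison called, so this recovery does not carry over to it.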
